A study of Mus musculus with 20 samples.

Results

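The genes described here are 9 enzymes and subunits of the tricarboxylic acid (TCA) cycle and of pyruvate entry into it. They are SUCLG1, SUCLG2, SUCLA2, CS, IDH3A, OGDH, MDH2, PDHA1 and PC. They were selected by gene symbol, ignoring case, out of 60607 genes listed for humanized mouse livers and 55335 listed for WT mouse livers. SUCLG2 entered because its TPM (reads scaled for gene length and library size) were much lower in the WT livers with HuR knockdown (KD), so its WT values are given as a description with no test. The other genes entered by function. All 9 symbols were found in the human table and 8 of 9 in the mouse table. The mouse pyruvate carboxylase gene is listed there as Pcx, of which RefSeq gives Pc as a synonym, so its values stand beside the others and outside the counts.

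Livers of humanized mice were compared at 4 HuR KD against 4 LacZ, and livers of WT mice at 6 HuR KD against 6 LacZ. WT mice were male C57BL/6, bought at 8 weeks of age and acclimatized for 10 to 14 days. Humanized mice were TK-NOG, an immune-deficient strain in which a mouse albumin promoter drives a herpes simplex thymidine kinase in the liver. Ganciclovir at 25 mg/kg, given at 8 to 9 weeks of age, removed host hepatocytes, and transplanted primary human hepatocytes took their place. These mice were used 8 to 12 weeks after the transplant, if their serum human albumin was at least 0.5 mg/ml. The HuR KD livers carried an adenovirus with an shRNA against human HuR in humanized mice and mouse HuR in WT mice, and the LacZ livers a control adenovirus. All 20 mice received 2000000000 pfu, and livers were taken on day 7 after a 4 h fast. The humanized table lists human genes only, so host cells are not seen in it, and species, host strain, shRNA and library set cannot be told apart between the sets. In bulk RNA, fewer cells of a type and less RNA per cell cannot be told apart either.

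The TCA cycle, in the mitochondrial matrix, oxidises acetyl groups to carbon dioxide and passes the electrons to the respiratory chain. Pyruvate enters as acetyl-CoA through the pyruvate dehydrogenase complex or as oxaloacetate through pyruvate carboxylase, and in fasted liver the carboxylase branch feeds gluconeogenesis. Succinyl-CoA ligase, which turns succinyl-CoA into succinate, is a dimer of the alpha subunit SUCLG1 with either of 2 beta subunits: SUCLG2 makes the enzyme that forms GTP, and SUCLA2 the enzyme that forms ATP. HuR, encoded by ELAVL1, is an RNA-binding protein known for binding U-rich and AU-rich stretches of mRNAs, often in 3′ UTRs.

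Reads recovered from the steps of the TPM came to between 2671024 and 20306915 per humanized liver and between 12960605 and 44669210 per WT liver, except WT LacZ 2 with 1423990. Humanized HuR KD 4 and LacZ 2, the deepest of their set, correlated better with each other (r = 0.965) than with the livers of their own groups. WT LacZ 2 and HuR KD 6, the shallowest, correlated least with the rest of the WT livers (median r of 0.921 and 0.956). These pairs stand apart, and results are also given without them. ELAVL1 was 3.46 ± 0.763 TPM with KD and 5.67 ± 0.623 TPM with LacZ in humanized livers (mean ± SD, n = 4 each), and Elavl1 4.91 ± 0.694 and 9.50 ± 0.789 TPM in WT livers (n = 6 each). All KD livers lay below all LacZ livers in both sets. Hepatocyte markers (ALB, APOA1 and others) had none called in either set, and their summed TPM overlapped between groups. Of the other cell types, in humanized livers 1 of 2 stellate and 2 of 4 cholangiocyte markers tested fell. Of 7 macrophage markers 2 were tested and 0 called. CLEC4F and MARCO were at 0, but the 7 summed to 62.5 to 96.4 TPM with KD and 49.8 to 75.7 TPM with LacZ, which overlap. The markers of T and NK cells were at or near 0. In WT livers 3 of 7 macrophage markers fell (summed TPM from 109 to 179 with KD and from 151 to 215 with LacZ), as did 1 of 4 T and NK cell and 1 of 6 stellate markers, and 1 of 5 endothelial markers rose. Over all genes 7.87% fell at the same threshold in humanized livers, and in WT livers 6.94% fell and 9.09% rose. The part of other cell types in the results below was not tested.

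In WT livers Suclg2 stood at 56.3% of its LacZ level with HuR KD. Its lowest, median and highest TPM were 53.0, 61.6 and 65.3 with HuR KD and 89.6, 109 and 127 with LacZ. All 6 KD livers lay below all 6 LacZ livers, and the KD livers were the tighter group (60.8 ± 4.14 against 108 ± 14.1 TPM, mean ± SD). The difference was -0.81 on the log2(TPM + 1) scale, and -0.77 without WT LacZ 2 and HuR KD 6. Between 297 reads, in the shallow LacZ 2, and 8288 reads lay behind each value. In humanized livers SUCLG2, the most abundant member, fell from 121, 119, 106 and 124 TPM in LacZ livers 1 to 4 to 89.8, 90.2, 98.7 and 97.2 TPM in HuR KD livers 1 to 4. All 4 KD livers lay below all 4 LacZ livers, as in 5.03% of genes, and the mean went from 117 ± 7.86 to 94.0 ± 4.61 TPM. The log2 fold change was -0.32 (SE 0.12, unadjusted p = 0.022, adjusted p = 0.335), and -0.33 (unadjusted p = 0.039) without the pair of livers that stand apart. The p-value passed 0.05 when the TPM were rescaled (0.067 with median-of-ratios factors, 0.061 with quantile normalization and 0.073 over protein-coding genes alone), and when HuR KD 1, LacZ 1 or LacZ 4 was left out (0.059, 0.055 and 0.056). The 2 groups stayed apart in TPM as deposited.

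Mouse Suclg2 (ENSMUSG00000061838.7) spans chr6:95473009-95718800 in GRCm38, minus strand, with 11 exons in transcript Suclg2-204, and no annotated gene overlaps it. The GENCODE M21 annotation also holds a processed pseudogene, Gm15163 (ENSMUSG00000085711.4), at chrX:157016229-157017530, minus strand as well. All 1302 bases of Gm15163 aligned without a gap to the coding part of Suclg2-204, bases 26 to 1327 of the transcript, with 1288 identical and 14 different bases (98.9% identity). The 100-base stretch within 1 coding exon with the most differences is shown, with the bases that differ in capitals, because reads of the WT libraries had to be told apart on such bases. The Suclg2 stretch is chr6:95588963-95589062 and the Gm15163 stretch chrX:157016983-157017082, both on the minus strand of GRCm38 and printed 5′ to 3′.
Suclg2: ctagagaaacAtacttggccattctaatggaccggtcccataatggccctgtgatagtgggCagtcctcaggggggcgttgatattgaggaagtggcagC
Gm15163: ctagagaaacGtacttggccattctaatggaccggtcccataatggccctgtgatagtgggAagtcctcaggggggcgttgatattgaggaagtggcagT
How reads that match both places were counted is not given in the sources used here, so the values of both genes are uncertain. Gm15163 had 49.2 ± 5.02 TPM in the HuR KD livers and 90.7 ± 13.5 TPM in the LacZ livers (n = 6 each). Its reads made up between 17.5% and 19.7% of the reads of both genes in KD livers, and between 18.2% and 20.4% in LacZ livers. With the reads of both genes put on Suclg2, its level was 74.7 ± 5.44 TPM with KD and 134 ± 17.8 TPM with LacZ, a log2 difference of -0.82, close to that of Suclg2 alone. The human table lists SUCLG2P2, a processed pseudogene of similar name, at 1.98 to 4.86 TPM with KD and 3.13 to 7.57 TPM with LacZ, far below SUCLG2. Other mouse copies that share at least 25% of their bases with a member in 25-base runs were low: Csl and Gm48254 (Cs) and 4930519F09Rik (Pdha1) had means under 3 TPM in both groups.

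**Figure D1:**
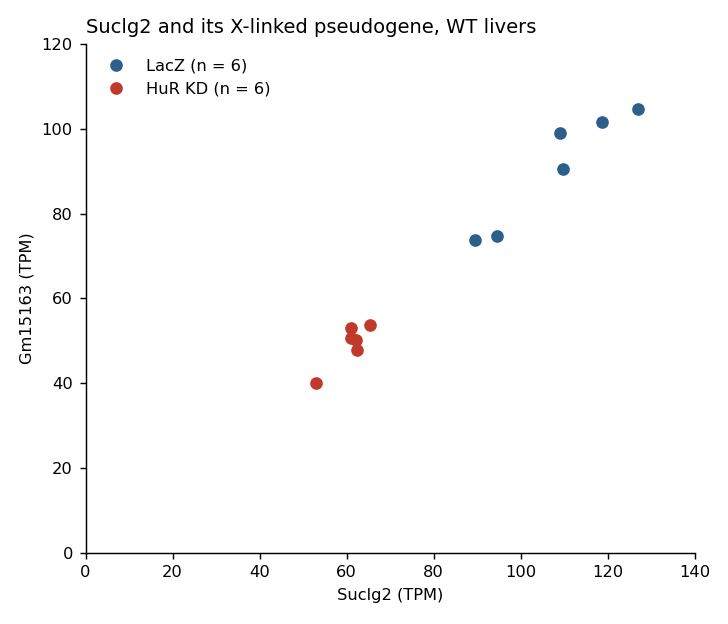
Suclg2 against the pseudogene Gm15163, both in TPM on linear axes, 1 point per WT liver. The 6 HuR KD livers lie between 53.0 and 65.3 TPM of Suclg2 and the 6 LacZ livers between 89.6 and 127 TPM, and Gm15163 follows the same order of groups.

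The 3′ UTR of Suclg2-204 has 2040 bases. It holds ATTTA, the core of AU-rich elements, 6 times and TTTNTTT 17 times, counted on the transcript strand with overlapping matches. Of 1570 tested genes with a 3′ UTR of like length (80% to 125%), 92.0% hold ATTTA and 24.1% hold it as often. For TTTNTTT the shares were 92.0% and 12.0%. Sucla2-203, whose level is described next, has a shorter 3′ UTR of 694 bases with ATTTA 2 times and TTTNTTT 2 times. The sites of ATTTA are shown for both beta subunits with 12 bases on each side and the motif in capitals, as DNA letters 5′ to 3′. Suclg2 sites are on the minus strand and Sucla2 sites on the plus strand of GRCm38, and the first and the last Suclg2 site are chr6:95474879-95474907 and chr6:95474174-95474202.
Suclg2 site 1: gcctaaagctgaATTTAtactgtagtcat
Suclg2 site 2: catacatacagtATTTAaagccagatcta
Suclg2 site 3: attcacaagggcATTTAttctacattaga
Suclg2 site 4: agacaggctgatATTTAacatagtggctt
Suclg2 site 5: ttgatttttttgATTTAattttgataaat
Suclg2 site 6: taattttgataaATTTAtagtcctataca
Sucla2 site 1: tatataagaaatATTTAtcttcagcatca
Sucla2 site 2: gtatcaatcattATTTAtacatagaactt
Binding was not measured in these livers, and a match describes the letters only. Among the other mouse members, ATTTA occurs 5 times in the 3′ UTR of Pdha1, 4 times in Idh3a, 3 times each in Cs and Ogdh, and not at all in the short 3′ UTRs of Suclg1 (203 bases), Mdh2 (183 bases) and Pcx (464 bases).

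No other subunit of succinyl-CoA ligase passed the test as lower in either set. In WT livers Suclg1, the alpha subunit, had a lowest, median and highest value of 99.7, 113 and 139 TPM with HuR KD and 89.6, 101 and 111 TPM with LacZ. The groups overlapped, with 4 of 6 KD livers above all LacZ livers. Suclg1 rose from 99.1 ± 7.94 to 113 ± 14.3 TPM (log2 fold change 0.19, SE 0.08, unadjusted p = 0.045, adjusted p = 0.301). This p exceeded 0.05 when any 1 of 9 of the 12 livers was left out (up to 0.099) and was 0.024 without the pair that stands apart. Sucla2, the beta subunit of the ATP-forming enzyme, stood at 131 ± 9.77 TPM with KD and 125 ± 11.8 TPM with LacZ (log2 fold change 0.08, 95% interval -0.09 to 0.24, unadjusted p = 0.320). Its lowest value, 102 TPM, was that of the shallow LacZ 2. In humanized livers SUCLG1 stood at 39.5 ± 2.50 and 35.9 ± 4.31 TPM with KD and LacZ (log2 fold change 0.14, 95% interval -0.15 to 0.43, unadjusted p = 0.308). SUCLA2 stood at 5.41 ± 0.652 and 6.31 ± 0.813 TPM (log2 fold change -0.19, 95% interval -0.51 to 0.13, unadjusted p = 0.216). Both overlapped between groups.

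The shares of the beta subunits in TPM differed between the 2 sets. With LacZ, SUCLG2 made up between 94.5% and 95.4% of the beta subunit TPM (SUCLG2 plus SUCLA2) in humanized livers and between 41.4% and 51.7% in WT livers. With HuR KD the share was between 94.0% and 95.04% in humanized and between 30.3% and 33.7% in WT livers. The WT groups did not overlap, which rests on the Suclg2 values that chose it and is given with no test. The WT shares leave out the reads on Gm15163, between 17.5% and 20.4% of the reads of both genes. All shares are of levels per length and not of reads. The gene lengths were 3090 bases for SUCLG2 and 8879 bases for SUCLA2 in human, and 4623 and 3988 bases in mouse. The contrast between the sets depends in part on these lengths. For example, LacZ 1 had 1454 SUCLG2 and 235 SUCLA2 reads in the humanized set, and 8288 and 7123 reads in the WT set. In humanized livers the log2 ratio of SUCLG2 to SUCLA2, which does not depend on the scaling of a library, was 4.13 ± 0.11 with KD and 4.22 ± 0.12 with LacZ. The difference of -0.10 (SE 0.08) did not pass a 2-sided exact permutation test over 70 groupings (p = 0.257, where the smallest p possible is 0.029). Leaving out 1 liver gave differences between -0.14 and -0.05. The beta sum per SUCLG1, a ratio of levels per length, was 2.44 to 2.59 with KD and 3.26 to 3.82 with LacZ in humanized livers, where the groups did not overlap. In WT livers it was 1.2 to 1.94 and 1.90 to 2.79, and 4 of 6 KD livers lay below all LacZ livers. The WT ratio also rests on the Suclg2 values that chose it, leaves out the reads on Gm15163 and is given with no test. In both sets it is not separate from the SUCLG2 values above, and the share of such ratios that do not overlap was not computed.

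**Figure D2:**
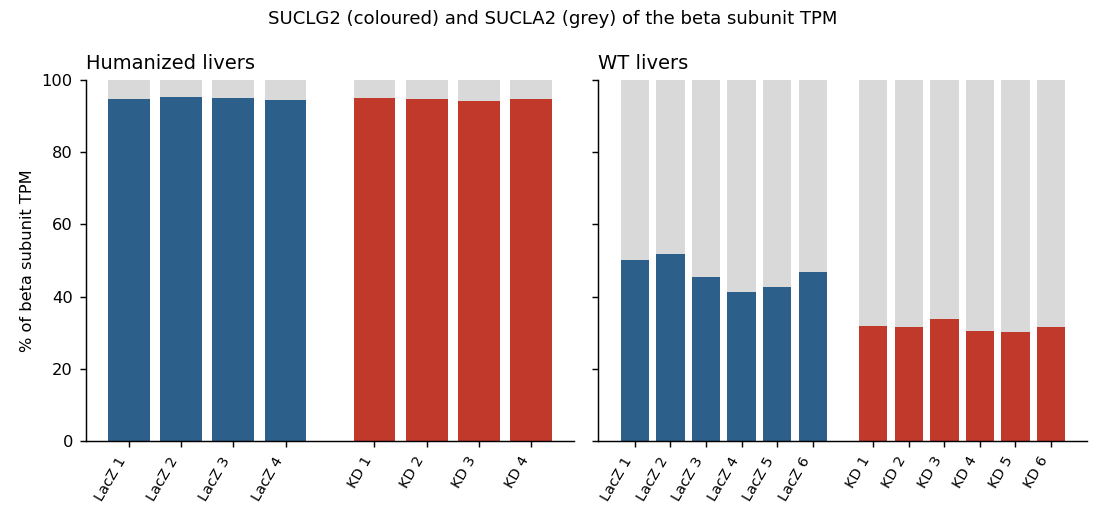
Share of SUCLG2 (coloured) and SUCLA2 (grey) in the summed TPM of both beta subunits, in percent on a linear axis, 1 bar per liver (blue, LacZ, and red, HuR KD). SUCLG2 holds at least 94.0% in every humanized liver, while in WT livers it holds 41.4% to 51.7% with LacZ and 30.3% to 33.7% with HuR KD.

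Citrate synthase (CS), which joins acetyl-CoA and oxaloacetate in the first step of the cycle, rose in humanized livers. Its TPM were 24.9, 27.2, 36.0 and 33.8 in HuR KD livers 1 to 4 and 14.7, 26.0, 19.3 and 12.5 in LacZ livers 1 to 4. Of 4 KD livers 3 lay above all LacZ livers, and KD 1 lay below LacZ 2. The mean went from 18.1 ± 5.94 to 30.5 ± 5.24 TPM (log2 fold change 0.75, SE 0.23, unadjusted p = 0.0086, adjusted p = 0.245). The p stayed under 0.05 with each liver left out and without the pair that stands apart (log2 fold change 0.88, unadjusted p = 0.0032). In WT livers Cs stood at 65.8 ± 7.96 TPM with KD and 57.8 ± 5.49 TPM with LacZ (log2 fold change 0.18, SE 0.09, unadjusted p = 0.071), with 4 of 6 KD livers above all LacZ livers. Its p was 0.043 to 0.050 with median-of-ratios factors, quantile normalization or recovered reads.

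IDH3A, the catalytic subunit of the NAD-dependent isocitrate dehydrogenase, was the least abundant member per length with LacZ in both sets. It stood at 5.86 ± 0.559 TPM with KD and 4.70 ± 0.713 TPM with LacZ in humanized livers (log2 fold change 0.27, SE 0.14, unadjusted p = 0.087), and its p was 0.033 without the pair that stands apart and 0.037 without LacZ 2 alone. Between 46 and 428 reads lay behind each humanized value. In WT livers Idh3a stood at 20.7 ± 3.02 and 18.9 ± 3.68 TPM (log2 fold change 0.13, 95% interval -0.15 to 0.42, unadjusted p = 0.324), and the groups overlapped fully.

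OGDH, an E1 subunit of the 2-oxoglutarate dehydrogenase complex that supplies succinyl-CoA, moved in opposite directions in the 2 sets. In humanized livers its TPM were 12.8, 14.9, 16.2 and 16.8 in HuR KD livers 1 to 4 and 24.8, 16.7, 19.5 and 23.4 in LacZ livers 1 to 4. Of 4 KD livers 3 lay below all LacZ livers, and KD 4 lay just above LacZ 2, which together are the pair that stands apart. OGDH fell from 21.1 ± 3.68 to 15.2 ± 1.76 TPM (log2 fold change -0.44, SE 0.16, unadjusted p = 0.021, adjusted p = 0.327), with a log2 fold change of -0.59 (unadjusted p = 0.0068) without that pair. The p was 0.062, 0.064 and 0.056 without HuR KD 1, LacZ 1 or LacZ 4. In WT livers the lowest, median and highest Ogdh values were 139, 153 and 208 TPM with HuR KD and 123, 130.02 and 149.7 TPM with LacZ. Of 6 KD livers 5 lay above all LacZ livers. Ogdh rose from 132 ± 9.68 to 159.5 ± 24.3 TPM (log2 fold change 0.26, SE 0.09, unadjusted p = 0.013, adjusted p = 0.176). Without the pair of WT livers that stands apart its log2 fold change was 0.17 (unadjusted p = 0.013). The log2 value with all livers was more than 1.5 times that without the pair. HuR KD 6 held the highest Ogdh value of all WT livers. OGDHL, a gene of similar name outside the list, averaged more than OGDH in humanized livers, at 27.2 TPM with KD and 33.0 TPM with LacZ. Its groups overlapped there (17.2 to 40.1 and 24.4 to 41.6 TPM). In WT livers Ogdhl averaged 0.039 and 0.046 TPM. The OGDH values thus leave out a related gene that was seen in humanized livers only at such levels.

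MDH2, the mitochondrial malate dehydrogenase that closes the cycle, rose in WT livers. Its lowest, median and highest TPM were 68.6, 78.9 and 97.9 with HuR KD and 60.6, 65.1 and 72.4 with LacZ. Of 6 KD livers 5 lay above all LacZ livers. The mean went from 65.8 ± 4.82 to 80.5 ± 9.81 TPM (log2 fold change 0.28, SE 0.08, unadjusted p = 0.0042, adjusted p = 0.112), and p stayed under 0.05 with each liver left out and without the pair that stands apart (0.24, unadjusted p = 0.0030). In humanized livers MDH2 stood at 49.1 ± 5.85 TPM with KD and 49.5 ± 8.25 TPM with LacZ (log2 fold change -0.004, 95% interval -0.35 to 0.34, unadjusted p = 0.979), and the groups overlapped fully. The interval of this difference reaches past the WT value.

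The members of pyruvate entry, PDHA1 and PC, did not pass the test in either set. PDHA1, the E1 alpha subunit of the pyruvate dehydrogenase complex, stood at 39.7 ± 4.99 and 33.9 ± 7.33 TPM with KD and LacZ in humanized livers (log2 fold change 0.24, SE 0.18, unadjusted p = 0.211). Its p was 0.035 to 0.046 when the TPM were rescaled by median-of-ratios factors, quantiles or protein-coding genes. In WT livers Pdha1 stood at 97.9 ± 7.07 and 98.1 ± 7.35 TPM (log2 fold change -0.003, 95% interval -0.14 to 0.14, unadjusted p = 0.970). PC, pyruvate carboxylase, stood at 20.6 ± 2.55 and 22.0 ± 3.66 TPM in humanized livers (log2 fold change -0.08, 95% interval -0.44 to 0.27, unadjusted p = 0.612). The mouse gene Pcx was the most abundant of all in WT livers, at 392.1 ± 62.3 and 375 ± 45.8 TPM (log2 fold change 0.06, 95% interval -0.17 to 0.29, unadjusted p = 0.597).

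**Figure D3:**
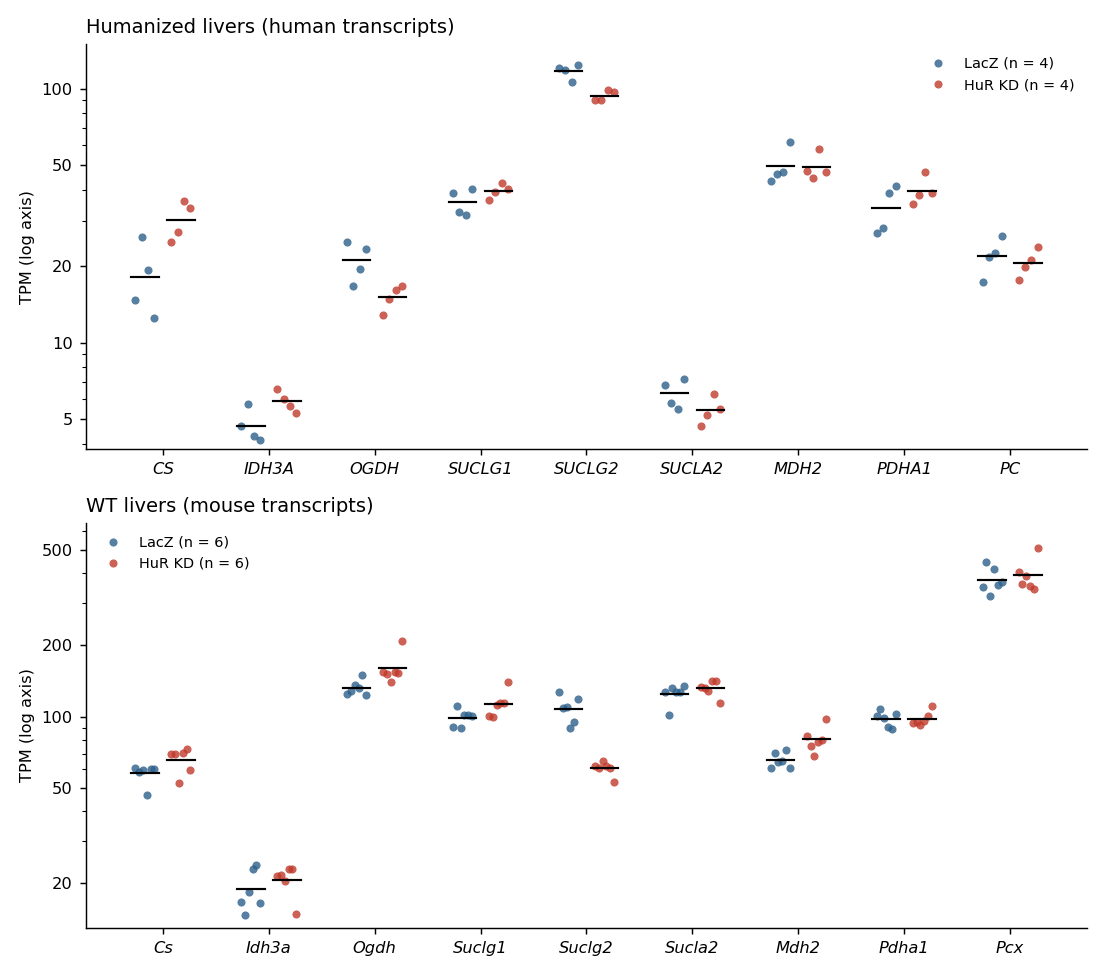
TPM of each member in every liver, on a log axis, in humanized livers (upper panel) and WT livers (lower panel), with LacZ in blue, HuR KD in red and black lines at the group means. SUCLG2 separates the groups in both panels, at 89.8 to 98.7 against 106 to 124 TPM in humanized and 53.0 to 65.3 against 89.6 to 127 TPM in WT livers.

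Counted together, 3 of 9 members passed an unadjusted p under 0.05 in humanized livers, 1 higher and 2 lower, where 11.5% of 12738 genes did (3.6% higher and 7.87% lower). After limma's Benjamini-Hochberg adjustment 0 passed, as against 27 genes (0.212%) in all, a number that was 0 without HuR KD 1, 2 or 3, LacZ 1 or LacZ 4, 4 without LacZ 3, 14 without HuR KD 4 and 172 without LacZ 2. SUCLG2 was the only member whose groups did not overlap, which held for 7.16% of all genes and in the lower direction for 5.03%. Without HuR KD 1, LacZ 1 or LacZ 4 the count was 1 of 9, which was CS. In WT livers 3 of the 7 members other than Suclg2 passed, all of them higher, beside 16% of 15090 genes (9.09% higher and 6.94% lower). After adjustment 0 of these 7 passed, beside 0.888% of all genes (134, or between 30 and 371 with 1 liver left out and 762 without the pair that stands apart), and none had groups that did not overlap, beside 2.49%. Their median log2 fold change was 0.18, where that of all genes was 0.03. In humanized livers the median of the 9 members was -0.004, where that of all genes was -0.05. Without the livers that stand apart 4 of 9 members passed in humanized and 3 of 7 in WT livers, beside 2011 of 12826 and 3499 of 15082 genes.

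**Figure D4:**
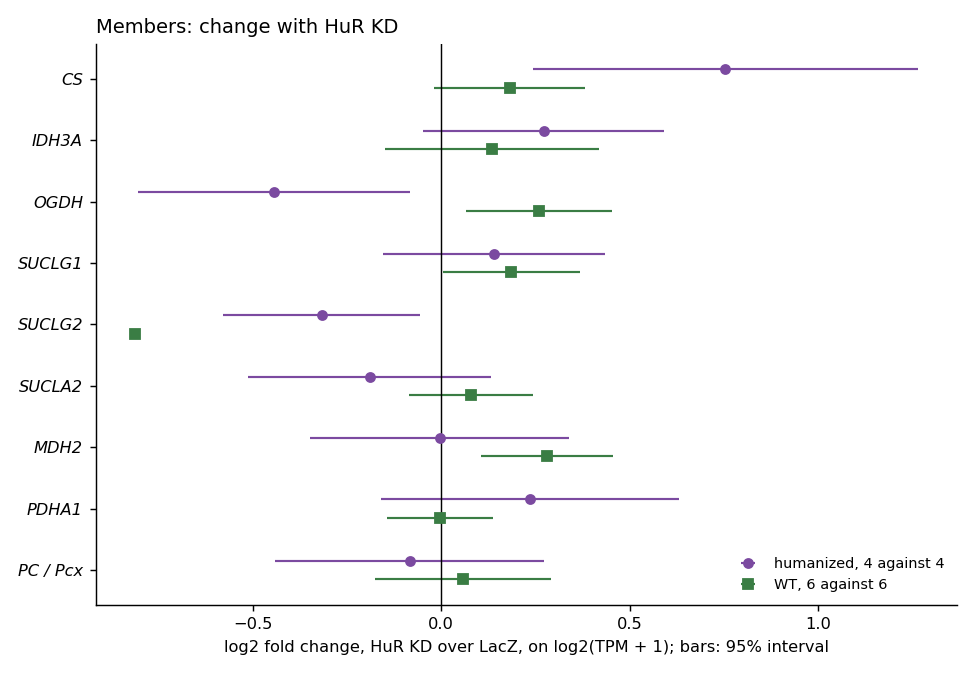
log2 fold change of HuR KD over LacZ for each member in humanized livers (circles, 4 against 4) and WT livers (squares, 6 against 6), with bars for the 95% interval of the limma fit, and no bar for WT Suclg2, which chose the list. OGDH lies at -0.44 in humanized and 0.26 in WT livers, and SUCLG2 lies below 0 in both.

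The levels were ordered differently in the 2 sets. With LacZ, SUCLG2 led in humanized livers, followed by MDH2 at 49.5 TPM, both above the next member in all 4 livers with no overlap. SUCLG1 and PDHA1 came next and overlapped, as did PC, OGDH and CS after them, and SUCLA2 and IDH3A were last. With HuR KD, CS stood above PC and OGDH with no overlap. In WT livers with LacZ, Pcx led with no overlap. Ogdh, Sucla2, Suclg2, Suclg1 and Pdha1 lay between 98.1 and 132 TPM on average, each overlapping its neighbour, followed by Mdh2, Cs and Idh3a. With HuR KD, Suclg2 went from the fourth place to the eighth, below Cs, with overlapping ranges, in TPM as deposited. These places do not hold with the reads of Gm15163 put on Suclg2. Its mean was then 134 TPM with LacZ, beside 132 TPM for Ogdh, and 74.7 TPM with KD, beside 65.8 TPM for Cs.

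The effect of HuR KD was compared between the sets in a joint fit over 8206 genes with the same symbol, with 1 spread per gene for all 20 livers. Humanized livers correlated less with each other (median r of 0.878 to 0.913) than WT livers (0.921 to 0.984). The p-values of this fit can therefore be too small for genes that varied more in the smaller humanized set. Of the 8206 genes 19.7% passed an unadjusted p under 0.05 and 5.01% after adjustment. Of the 7 members tested, OGDH passed both. Its log2 effect, humanized minus WT, differed by -0.70 (95% interval -1.05 to -0.35, unadjusted p = 0.00043, adjusted p = 0.018). It was -0.77 without the 4 livers that stand apart, and over the alternatives the adjusted p lay between 0.0013 and 0.051, the highest with median-of-ratios factors. The CS effect was 0.57 higher in humanized livers (SE 0.22, unadjusted p = 0.016, adjusted p = 0.143), and p was 0.056 without humanized LacZ 4. MDH2 (-0.29, unadjusted p = 0.085), SUCLA2 (-0.27, unadjusted p = 0.075), PDHA1 (0.24, unadjusted p = 0.162), IDH3A (0.14, unadjusted p = 0.485) and SUCLG1 (-0.05, unadjusted p = 0.758) did not pass. The SUCLG2 effect was 0.50 higher, that is smaller in size, in humanized livers, given with no test.

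Across the 12 WT livers the genes most like Suclg2, among 9553 with a mean of at least 5 TPM, were Gm15163 (Pearson r = 0.991), Elavl1 (r = 0.980) and Atp6ap1 (r = 0.977), which encodes an accessory subunit of the proton-pumping V-ATPase. These are correlations of log2(TPM + 1) that mostly follow the group difference and share the library of each liver. After each group was centred on its mean, they were 0.938, 0.802 and 0.755. Elavl1 itself lay between 3.72 and 5.62 TPM with KD and 8.58 and 10.7 TPM with LacZ. Across the 8 humanized livers 6446 genes passed the same limit of 5 TPM. ELAVL1, at 3.46 TPM with KD and 5.67 TPM with LacZ, averaged below it and was not ranked. The most alike were NID1, a basement membrane protein (r = 0.983), MTTP, which loads lipid onto lipoproteins (r = 0.963), and CAMSAP2, which binds microtubule ends (r = 0.963). After group centring these 3 had 0.907, 0.772 and 0.816. Among the members in humanized livers, r was 0.852 for OGDH and 0.821 for SUCLA2, -0.712 for CS and -0.706 for IDH3A, and between -0.43 and 0.31 for the others. After group centring SUCLG1 went from -0.174 to 0.808 and CS to -0.032. Among those in WT livers it was -0.846 for Mdh2, -0.798 for Ogdh and -0.674 for Suclg1, and between -0.38 and 0.07 for the others. With the WT groups centred, Mdh2, Ogdh and Suclg1 had -0.667, -0.687 and -0.504. Cs then changed sign from -0.383 to 0.389, and Sucla2 from -0.226 to 0.244.

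The list of 12 other cycle enzymes also holds cytosolic Aco1 and Idh1 and NADP-dependent Idh2, which stand outside the cycle itself. Of these 12, 8 passed in WT livers, beside 16% of all genes. Of the 8, 6 were higher, Aco1 and Idh2 among them, and 2 lower, and 0 passed after adjustment (median log2 fold change 0.21). Among those that rose were Aco1, the cytosolic aconitase (118 to 141 TPM), the NADP-dependent Idh2 (122 to 142 TPM), the succinate dehydrogenase subunits Sdhb (190 to 217 TPM) and Sdhd (488 to 552 TPM) and fumarase, Fh1 (280 to 341 TPM). Those that fell were Dlst, the E2 subunit of the complex to which Ogdh belongs (77.8 to 68.7 TPM, log2 fold change -0.18, unadjusted p = 0.020), and Sdhc, a membrane anchor of succinate dehydrogenase (107 to 91.6 TPM, log2 fold change -0.23, unadjusted p = 0.0018). The count was 6 without the pair of livers that stands apart (4 higher and 2 lower), 5 without HuR KD 4, HuR KD 5, HuR KD 6 or LacZ 1, and 3 with median-of-ratios factors (2 higher and 1 lower). Without the pair, Sdhd and Fh1 did not pass (unadjusted p = 0.162 and 0.117), and with 1 liver left out they passed in 5 and 6 of 12 fits. In humanized livers 1 of these 12 passed, beside 11.5% of all genes. It was IDH3B, a regulatory subunit of the enzyme of which IDH3A is the catalytic one, which fell from 27.4 ± 7.10 to 17.2 ± 4.03 TPM (log2 fold change -0.63, unadjusted p = 0.018, adjusted p = 0.312). Without HuR KD 2 its unadjusted p = 0.054. In WT livers Idh3b stood at 131 TPM with KD and 111 TPM with LacZ (unadjusted p = 0.060). The IDH3B effect differed between the sets by -0.86 (SE 0.23, unadjusted p = 0.0011, adjusted p = 0.030). List genes named here and below whose groups overlap were chosen after their values were seen.

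**Figure D5:**
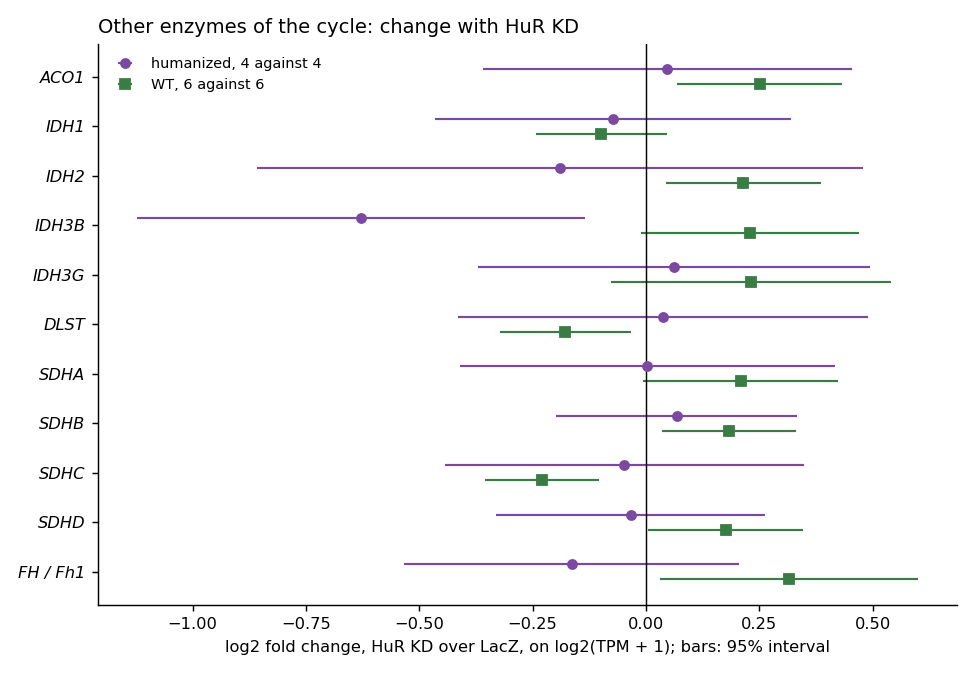
log2 fold change of HuR KD over LacZ with its 95% interval for 11 enzymes of the list of other cycle enzymes, Aco1, Idh1 and Idh2 included, in humanized livers (circles) and WT livers (squares). In WT livers the intervals of Dlst and Sdhc lie below 0 and those of 5 enzymes above 0, and in humanized livers that of IDH3B alone leaves 0.

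Among 10 tested genes of the pyruvate dehydrogenase complex and its regulators, 2 passed in WT livers, 1 in each direction, beside 16% of all genes. The count was 5 (4 higher) without HuR KD 6, 4 (3 higher) without the pair that stands apart, and 1 with median-of-ratios factors or without HuR KD 4, HuR KD 5, LacZ 2 or LacZ 3. Dlat, the E2 subunit that holds the lipoyl arm, fell, with a lowest, median and highest value of 23.3, 26.5 and 29.8 TPM with HuR KD and 30.5, 37.0 and 39.9 TPM with LacZ. All 6 KD livers lay below all 6 LacZ livers, as in 1.23% of genes (log2 fold change -0.41, SE 0.08, unadjusted p = 0.00018, adjusted p = 0.038). Over the alternatives its log2 fold change lay between -0.46 and -0.35 and its adjusted p between 0.010 and 0.142, under 0.05 in 12 of 22. Pdhb, the E1 beta subunit that pairs with Pdha1, rose from 54.4 to 59.8 TPM (unadjusted p = 0.026, adjusted p = 0.240) and was the gene that lost its call in those 5 fits (unadjusted p up to 0.066). In humanized livers 0 of 10 passed, and DLAT stood at 20.8 and 22.2 TPM (unadjusted p = 0.695). The DLAT effect differed between the sets by 0.35 (unadjusted p = 0.049, adjusted p = 0.250).

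Among pyruvate and malate entry and exit genes, 2 of 11 passed in humanized livers, both lower, beside 7.87% of all genes that were called lower. The count was 4, all lower, without the pair that stands apart, 3 without LacZ 2, and 1 without HuR KD 1, HuR KD 3, LacZ 3 or LacZ 4. MPC2, a subunit of the mitochondrial pyruvate carrier, fell from 104 ± 14.7 to 75.8 ± 9.96 TPM (log2 fold change -0.46, SE 0.15, unadjusted p = 0.015, adjusted p = 0.289). Its groups did not overlap, at 62.4 to 84.2 TPM with KD and 89.0 to 123 TPM with LacZ, as in 5.03% of genes in this direction. The other was ME3, a mitochondrial malic enzyme, at 2.18 TPM with KD and 4.03 TPM with LacZ (unadjusted p = 0.039, adjusted p = 0.405). MPC2 passed in 18 of 18 alternatives and ME3 in 6 of 17, and it missed the threshold under all 3 rescalings and without HuR KD 1, 3 or 4 or LacZ 3 or 4 (up to 0.101). In WT livers 3 of 11 passed, all higher, beside 9.09% of all genes that were called higher. Mpc2 was not among the 3 (52.4 and 53.9 TPM, unadjusted p = 0.667). The 3 were Pck1, the gluconeogenic phosphoenolpyruvate carboxykinase (2610 to 3200 TPM), Got2, the mitochondrial aspartate aminotransferase (168 to 192 TPM), and Acly, which splits exported citrate in the cytosol (68.4 to 101 TPM). The effect on MPC2 differed between the sets by -0.40 (unadjusted p = 0.076), which did not pass.

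Of 11 and 12 genes of succinyl-CoA supply and use tested in humanized and WT livers, 2 passed in each, beside 11.5% and 16% of all genes. ALDH5A1, which makes succinate from succinic semialdehyde, was called lower in both. In WT livers Aldh5a1 fell from 33.8 ± 4.02 to 29.0 ± 0.556 TPM (log2 fold change -0.21, SE 0.07, unadjusted p = 0.013, adjusted p = 0.179). Its groups did not overlap, as in 1.23% of genes in this direction. The highest KD liver (29.67 TPM) and the lowest LacZ liver (29.73 TPM) were close. In humanized livers ALDH5A1 fell from 24.5 ± 5.28 to 17.7 ± 2.89 TPM (log2 fold change -0.43, unadjusted p = 0.045, adjusted p = 0.423). This call was held in 8 of 18 alternatives and in 2 of the 8 fits with 1 liver left out, those without HuR KD 4 or LacZ 1 (the others up to 0.120). The difference of the ALDH5A1 effect between the sets was -0.23 (95% interval -0.59 to 0.14). PCCA, a subunit of propionyl-CoA carboxylase, fell from 18.1 to 13.1 TPM in humanized livers (unadjusted p = 0.027, adjusted p = 0.359), and lost its call without HuR KD 1, HuR KD 2, LacZ 1 or LacZ 4 (up to 0.077). Nme4, a mitochondrial nucleoside diphosphate kinase, rose from 2.45 to 3.90 TPM in WT livers (unadjusted p = 0.029, adjusted p = 0.250). It did not pass without the pair that stands apart (unadjusted p = 0.109), nor without HuR KD 3, 4, 5 or 6 or LacZ 1 or 2.

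Of the lipoylation genes 0 of 5 passed in either set. Of 4 carriers tested in humanized livers 1 passed, beside 11.5% of all genes. The gene was SLC25A1, the citrate carrier, which fell from 97.1 to 68.6 TPM (unadjusted p = 0.025, adjusted p = 0.350). It lost its call with median-of-ratios factors, over protein-coding genes, and without HuR KD 1, HuR KD 2, LacZ 2 or LacZ 3 (up to 0.081), and unadjusted p = 0.0035 without the pair that stands apart. In WT livers 0 of 6 carriers passed. Of 6 PGC-1 and ERR regulators in humanized livers 1 passed, beside 11.5% of all genes as well. The gene was the nuclear receptor ESRRA, which rose from 24.9 to 34.9 TPM (unadjusted p = 0.044, adjusted p = 0.420). Of the 8 fits with 1 liver left out only that without LacZ 2 kept this call (the others up to 0.124), and without the pair that stands apart it had an unadjusted p = 0.0037. In WT livers Ppargc1b (5.14 to 6.99 TPM, adjusted p = 0.111) and Nrf1 (3.88 to 5.10 TPM, adjusted p = 0.107) rose, 2 of 7, beside 9.09% of all genes that were called higher. Each alternative in which they were tested kept both calls.

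Over all 7 lists, 7 of 59 tested genes passed in humanized livers, 1 higher and 6 lower, beside 11.5% of all genes, and their median log2 fold change of -0.03 stood beside -0.05 for all genes. In WT livers 17 of 63 passed, 13 higher and 4 lower, beside 16% of all genes, with a median of 0.08 beside 0.03. After adjustment 0 and 1 passed. Without the livers that stand apart the counts were 9 in humanized and 19 in WT livers. Over all genes the calls then rose as well, to 2011 of 12826 in humanized and 3499 of 15082 in WT livers. The humanized count of list genes was 2 without HuR KD 2, 3 without LacZ 4, and 4 without HuR KD 3 or LacZ 3.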

How the data were processed

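RNA was measured by stranded total RNA sequencing (TruSeq) of 20 livers. The authors trimmed reads, aligned them with HISAT2 to mouse GENCODE M23 for WT livers and to a combined human (GENCODE v32) and mouse index for humanized livers, and assigned them to genes with featureCounts. The deposited values are TPM in 1 table per set. Builds per the labels are mm10 (GRCm38) and GRCh38. The 2 tables were scaled apart, and levels are compared within a table only.

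The members and gene lists were chosen with earlier results of these data known. The files hold TPM, so limma 3.58.1 in R 4.3.3 (lmFit and eBayes with trend, 2-sided) was run on log2(TPM + 1), keeping genes whose TPM averaged 1 or more, with Benjamini-Hochberg adjustment over all genes tested. Fold changes on this scale understate changes of low genes. The study's own threshold, 0.05 without adjustment, defined a call. A joint fit compared the sets. The named genes are ELAVL1, all members, list genes that were called with groups that do not overlap, and the 3 genes most like SUCLG2 in each set. Whole reads were recovered from the steps of the TPM for 18701 human and 25110 mouse genes, and the lengths found agree within 2% with the annotation for 99.96% of 24645 mouse genes. These reads and depths cover counting error only. Fits and recovery were tested on simulated data.

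Nothing says how reads with several matches were counted. Motifs, coordinates and the alignment with Gm15163 use GENCODE M21 on GRCm38, whose version differs from the authors' M23. Human transcripts and proteins were not used here. The values of 1 list gene are not reported here. Each sample is 1 mouse as the labels number them. The text calls the limma p before adjustment unadjusted. Same-numbered livers did not deviate together (correlations from -0.25 to 0.21), so the numbers pair nothing. Alternatives were another pseudocount, filters, scalings, eBayes without trend, voom on recovered reads, a block and leaving out livers. Leaving out livers that stand apart was chosen after seeing the data. Python 3.11.15, pandas 2.3.3, numpy 2.4.6 and matplotlib 3.10.9 were used.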

Additional observations from a re-analysis of the deposited data

Results flagged for a closer look

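In groups of 6 WT livers, single livers stood far from the rest by Dixon's ratio of gap to range, which chance flags in about 1 of 20 groups. HuR KD 6, the shallowest KD liver, was the highest for Suclg1 (139 TPM, next 114), Ogdh (208 TPM, next 154) and Pcx (510 TPM, next 404) and the lowest for Suclg2 (53.0 TPM, next 61.0) and Idh3a (14.9 TPM, next 20.4). LacZ 2, with the fewest reads, was the lowest for Sucla2 (102 TPM, next 126). LacZ 4 was the lowest for Cs (46.7 TPM, next 58.7). In all, 40 groups of 4 or 6 livers were looked at. The cause of these values was not tested.

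The effect of HuR KD on OGDH differed between humanized and WT livers by -0.70 on the log2 scale in the joint fit (adjusted p = 0.018), with species, host, shRNA and library set not separable.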

How the results depend on the processing

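Of 584 member values under alternatives, 517 kept their direction and their side of the threshold, 23 lost and 19 gained an unadjusted p under 0.05, and 25 changed sign. The number of genes called moved to 931 in humanized livers and 1035 in the comparison of sets with a mean TPM of at least 5, where fewer genes were tested, and to 2516 in the latter without the 4 livers that stand apart. Of the humanized calls 31.3% were higher as deposited, 49.4% with median-of-ratios factors, 47.3% with quantile normalization or over protein-coding genes, 44.1% with voom, and 20.8% to 40.3% with 1 liver left out.

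Signs changed for log2 differences near 0. MDH2 in humanized livers was 0.078 with median-of-ratios factors, 0.067 with quantile normalization, 0.083 over protein-coding genes and 0.074 with voom, and -0.082 to 0.104 with 1 liver left out. PC was 0.00054 over protein-coding genes and -0.186 to 0.0046 with 1 liver left out. WT Pdha1 was 0.0080 over protein-coding genes, 0.020 with voom and -0.040 to 0.026 with 1 liver left out, and Pcx -0.020 to 0.108. The SUCLG1 difference between sets was 0.045, 0.035 and 0.033 under the 3 rescalings, and -0.099 to 0.016 with 1 liver left out. The cause was not tested.

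Replicate numbers did not pair the livers. With the replicate block 1401 genes were called in humanized and 2242 in WT livers, and WT Suclg1 lost its call (0.19, unadjusted p = 0.060). The humanized ratio of SUCLG2 to SUCLA2, -0.10, had an exact p = 0.5 with the block. With the block 0 humanized and 17 WT genes passed after adjustment. Depth limits the low genes of humanized livers, ELAVL1 (from 34 reads), IDH3A (from 46) and SUCLA2 (from 65), and all genes in WT LacZ 2.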
